A study of Mus musculus with 6 samples.

Results

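The Ifi200 genes form a cluster on mouse chromosome 1 that encodes PYHIN proteins, and 8 of its genes were followed here in mouse aortas labelled as lacking soluble ST2 (sST2-KO): Aim2, Ifi209, Ifi207, Ifi204, Mndal, Ifi211, Ifi203 and Ifi205. Each was found by its symbol in the deposited table of 56748 genes, each symbol had 1 row, and all 8 passed the filter on low counts that left 16377 genes. The 8 lay in 1 stretch of 680.9 kb, as the name of the cluster says. They were picked because Ifi207 and Ifi204 separated the groups in these same libraries. Their differences between the groups are therefore given as a description and carry no p-value. The knockout mice were sST2-KO littermates (3 aortas, labelled as deficient in Apoe, 6 months old, given angiotensin II by osmotic minipump for 28 days). The mice they were set against were WT littermates (3 aortas), wild-type for sST2 only, with the same Apoe label, age, pump and duration. Apoe was nevertheless counted in every library, with values given below. The sources used here do not give the way soluble ST2 was removed, the strain, the sex or the aortic segment.

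PYHIN proteins carry a pyrin domain, a protein-binding fold of the death-domain family, and in most cases 1 or more HIN domains, which bind DNA. AIM2 senses double-stranded DNA in the cytosol and assembles an inflammasome with the adaptor ASC and caspase-1. The Ifi genes were named for their induction by interferon, and many are known from myeloid cells, where several have been linked to DNA sensing and to control of transcription. The cluster has expanded in the mouse, so its genes resemble each other closely.

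Libraries held 15615658 to 17988552 counts, so a count of 0 allows a level of up to 0.148 to 0.239 CPM (3 counts of the library, counting error only). CPM are counts scaled to library size, here with TMM (trimmed mean of M-values) factors, which were 0.964 to 1.19 in sST2-KO and 0.781 to 1.09 in WT. The lowest factor, 0.781, belonged to WT replicate 2, where mitochondrially encoded genes took 37.8% of counts. The library of sST2-KO replicate 2 carried airway transcripts, with Scgb1a1 at 12600 CPM against 0.276 to 7.89 CPM in the other 5 libraries. The library of WT replicate 3 carried liver transcripts, with Alb at 6205 CPM against 0.544 to 3.83 CPM in the other 5. Smooth muscle, endothelial and fibroblast markers were present in every library, and none of the 7 markers of each list was at 0 in all 6 libraries. Il1rl1, whose counts add the soluble and the membrane form of ST2, had 2.39, 2.82 and 4.86 CPM in sST2-KO replicates 1 to 3 and 2.81, 9.49 and 4.35 CPM in WT replicates 1 to 3. The groups overlapped, so this row checks the genotype only weakly. The gene of its ligand, Il33, had 51.2, 93.6 and 46.7 CPM in sST2-KO and 217, 132 and 162 CPM in WT, without overlap (edgeR adjusted p = 0.354). Apoe was not at 0: it had 172, 86.7 and 146 CPM in sST2-KO and 15.1, 11.6 and 507 CPM in WT, with the 507 CPM in the liver library and the other 2 WT libraries below every sST2-KO library, although all 6 mice are labelled as deficient in it. Il1rl1 lies 132.7 Mb from the cluster on the same chromosome.

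The promoters were read for letters that some of these genes share beyond their position. RefSeq promoter sequences (GRCm38.p6, 250 bases before to 50 after a start site) matched 7 of the 8 members by symbol; Ifi204 had no entry. They were searched on both strands for the core of the interferon-stimulated response element: GAAA, any 2 bases and GAAA (TTTC, any 2 bases and TTTC on the other strand). It was found in 5 of the 7 members, against 3.99% of 27025 genes with a promoter in the table and 17 of 27 interferon-stimulated genes outside the cluster. Among other PYHIN genes with a promoter 4 of 5 held it. A gene with several start sites was counted once, if any of them held it. A match is a description of the letters and not of binding. The promoter of Ifi207, the member with the tightest values, is given in full with the match in capitals, 41 to 32 bases before the start site.

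Ifi207 (chr1:173741760-173742059, GRCm38.p6, minus strand): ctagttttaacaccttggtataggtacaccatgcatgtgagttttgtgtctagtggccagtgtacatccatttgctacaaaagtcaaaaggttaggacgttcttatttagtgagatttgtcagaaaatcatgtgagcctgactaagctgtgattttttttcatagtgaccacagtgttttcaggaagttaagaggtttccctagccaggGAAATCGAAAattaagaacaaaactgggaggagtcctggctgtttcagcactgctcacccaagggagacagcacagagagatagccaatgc

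The surroundings of the element were alike within subsets of the cluster and less so between them. The 40 bases around it (GRCm38.p6) are given in the order of the genes along the chromosome, 5′ to 3′ on the strand of each gene, with the core in capitals and its position from the start site. Ifi206, Ifi214, Ifi213 and Ifi208 are further PYHIN genes of the stretch that are not among the 8. The capitals of Ifi209 mark the stretch at the matching place, which fits 7 of the 8 fixed letters and so is not a match.

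Ifi206 (chr1:173491334-173491373, minus strand, capitals at -40 to -31): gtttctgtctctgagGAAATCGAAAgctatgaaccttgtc
Ifi214 (chr1:173536012-173536051, minus strand, capitals at -79 to -70): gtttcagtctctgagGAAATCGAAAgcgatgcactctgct
Ifi213 (chr1:173599321-173599360, minus strand, capitals at -73 to -64): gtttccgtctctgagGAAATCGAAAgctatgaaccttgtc
Ifi209 (chr1:173630765-173630804, plus strand, capitals at -79 to -70): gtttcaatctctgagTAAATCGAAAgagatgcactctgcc
Ifi208 (chr1:173673592-173673631, plus strand, capitals at -58 to -49): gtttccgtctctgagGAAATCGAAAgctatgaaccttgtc
Ifi207 (chr1:173741826-173741865, minus strand, capitals at -41 to -32): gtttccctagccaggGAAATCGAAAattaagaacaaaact
Mndal (chr1:173880199-173880238, minus strand, capitals at -36 to -27): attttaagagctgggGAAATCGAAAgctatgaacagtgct
Ifi211 (chr1:173913059-173913098, minus strand, capitals at -37 to -28): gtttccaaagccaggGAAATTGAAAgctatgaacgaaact
Ifi203 (chr1:173942503-173942542, minus strand, capitals at -35 to -26): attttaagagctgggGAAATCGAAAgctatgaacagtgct
Ifi205 (chr1:174031865-174031904, minus strand, capitals at -134 to -125): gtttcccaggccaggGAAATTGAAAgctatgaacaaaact

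The blocks of Mndal and Ifi203 were identical over all 40 bases, as were those of Ifi213 and Ifi208. Ifi211 and Ifi205 shared 37 of 40 bases with each other, and Ifi207 shared 34 with Ifi205, 33 with Ifi211 and 27 with Mndal. Between subsets the count was lower, at 24 for Ifi206 and Ifi207 and 25 for Ifi206 and Ifi211, which includes the searched core. Ifi205 and the downstream start site of Mndal each held 1 more match, on the other strand. The more upstream start site of Ifi203 held no match. Aim2 held none, and no stretch of its promoter fitted more than 5 of the 8 fixed letters on its own strand. Among the other motifs searched, the AP-1 letters TGANTCA (8.97% of genes) occurred in Ifi209, Mndal and Ifi203, and the PU.1 letters GAGGAAGT (ACTTCCTC on the other strand, 3.69% of genes) in Aim2. The STAT letters TTCNNNGAA (9.55% of genes) and the kappaB letters (GGG, any 2 bases and TTTCC, or GGAAA, any 2 bases and CCC on the other strand, 1.89% of genes) were in none of the 7.

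Ifi207 (ENSMUSG00000073490, chromosome 1, 173550993 to 173569313, mm39) encodes a PYHIN protein that has been reported to stabilise the DNA-signalling adaptor STING in mouse cells. It had 27.3, 25.3 and 26.0 CPM in sST2-KO replicates 1 to 3 and 71.7, 69.8 and 63.4 CPM in WT replicates 1 to 3. The 3 sST2-KO libraries lay close together, and all were well under the lowest WT library. Its log2 change was -1.38 (SE 0.14), from 391 to 511 counts in sST2-KO and 875 to 1301 counts in WT. The closeness of the WT values depended on the scaling: by library totals alone Ifi207 had 26.7, 28.7 and 25.04 CPM in sST2-KO and 77.7, 54.4 and 65.8 CPM in WT, still without overlap.

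Ifi204 (ENSMUSG00000073489, 173574859 to 173594509), whose protein is often set beside human IFI16 as a nuclear and cytosolic DNA sensor, had 24.5, 16.03 and 20.7 CPM in sST2-KO and 81.0, 59.6 and 64.3 CPM in WT. The highest sST2-KO library, replicate 1, was far below the lowest WT library, replicate 2. It averaged 20.4 ± 4.24 CPM in sST2-KO and 68.3 ± 11.2 CPM in WT (SD, n = 3 each), and its log2 change was -1.74 (SE 0.22).

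**Figure D1:**
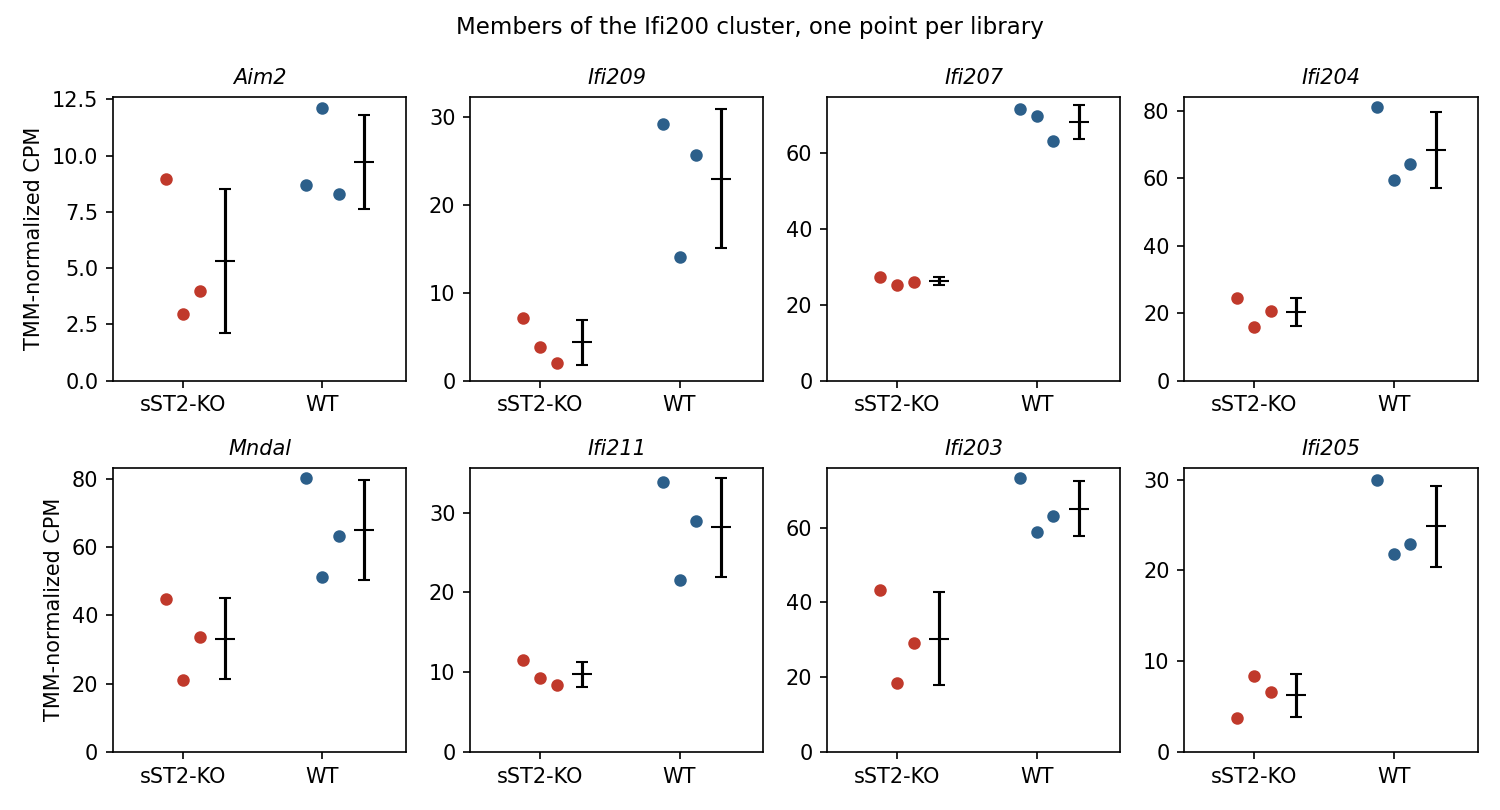
TMM-normalized CPM of the 8 members, sST2-KO left and WT right, with 1 point per library in the order of replicates 1 to 3 and the mean ± SD (n = 3) beside the points. The 3 sST2-KO libraries of Ifi207 sit between 25.3 and 27.3 CPM, under all 3 WT libraries at 63.4 to 71.7 CPM, while for Aim2 sST2-KO replicate 1 sits at 8.98 CPM, among the WT libraries.

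Mndal and Ifi203 were lower in sST2-KO by less, and in both sST2-KO replicate 1 stood above the other sST2-KO libraries. Mndal (ENSMUSG00000090272, 173676692 to 173708447), named for its likeness to the myeloid cell nuclear differentiation antigen, had 44.7, 21.1 and 33.7 CPM in sST2-KO and 80.2, 51.1 and 63.3 CPM in WT (log2 change -0.97, SE 0.30). Ifi203 (ENSMUSG00000039997, 173747973 to 173770238), reported to bind retroviral DNA in mouse cells, had 43.5, 18.5 and 29.1 CPM in sST2-KO and 73.3, 58.8 and 63.2 CPM in WT (log2 change -1.10, SE 0.31). For both genes the groups did not overlap with TMM scaling. By library totals alone Mndal overlapped, at 43.7 CPM in sST2-KO replicate 1 and 39.8 CPM in WT replicate 2.

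Ifi211, Ifi205 and Ifi209 had fewer counts than the 4 members above, and their log2 changes were all below -1.5. Ifi211 (ENSMUSG00000026536, 173723911 to 173740612) had 11.5, 9.25 and 8.45 CPM in sST2-KO and 33.9, 21.6 and 29.0 CPM in WT (log2 change -1.53, SE 0.24). Ifi205 (ENSMUSG00000054203, 173839564 to 173859376), reported in mouse macrophages to act on transcription of the ASC gene, had 3.75, 8.41 and 6.59 CPM in sST2-KO and 30.0, 21.8 and 22.9 CPM in WT (log2 change -1.99, SE 0.34). In Ifi205 sST2-KO replicate 1 was the lowest library, the reverse of Mndal and Ifi203. Ifi209 (ENSMUSG00000043263, plus strand, 173458483 to 173475494) had 7.10, 3.86 and 2.06 CPM in sST2-KO and 29.2, 14.1 and 25.6 CPM in WT. Its log2 change of -2.40 (SE 0.51) was the largest of the 8, with 31 counts in its lowest library, and WT replicate 2 lay well below the other WT libraries.

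Aim2 (ENSMUSG00000037860, plus strand, 173178445 to 173293606) was the only member whose groups overlapped with TMM scaling. It had 8.98, 2.97 and 3.99 CPM in sST2-KO and 8.71, 12.1 and 8.29 CPM in WT, from 60 to 158 counts in every library. Replicate 1 of sST2-KO lay inside the WT range. The log2 change was -0.87 (SE 0.46), and it was -1.48 without sST2-KO replicate 1, -0.57 without sST2-KO replicate 2 and -0.45 in limma-voom with sample quality weights. The row of Aim2 overlaps that of Cadm3, a cell adhesion gene on the minus strand (173160825 to 173195261), and without a stated strand setting their reads cannot be told apart there. Cadm3 had 25.1, 19.1 and 8.65 CPM in sST2-KO and 25.9, 29.7 and 29.8 CPM in WT.

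All 8 members had log2 changes below 0, where 46.5% of all tested genes did, and 6 had log2 changes below -1, where 5.23% of all tested genes did. In 7 of the 8 the groups did not overlap with every sST2-KO library lower, against 10% of tested genes, and in 0 with every sST2-KO library higher, against 9.09% of tested genes. With library totals alone the sST2-KO libraries were all lower for 6, against 6.64% of tested genes. The median log2 change of the members was -1.46, beside 0.042 over all tested genes. In sum the 8 genes held 171, 105 and 131 CPM in sST2-KO and 408, 309 and 340 CPM in WT, a ratio of means of 0.385. Since the genes were chosen from this contrast, these counts describe them and support nothing. Without both the airway library (sST2-KO replicate 2) and the liver library (WT replicate 3) the median was -1.45, 8 changes were below 0, 5 were below -1 (6.15% of genes) and 7 genes kept the groups apart with sST2-KO lower (21.9% of genes).

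The other PYHIN genes between the members were not among the 8. They were listed with earlier results of these data known and share sequence with genes of the cluster, so they are not separate support. Ifi213 had 1.53, 1.83 and 3.19 CPM in sST2-KO and 16.3, 6.06 and 11.9 CPM in WT, and its log2 change was -2.39 (SE 0.49, adjusted p = 0.339 in edgeR's quasi-likelihood test). Ifi206 had 1.93, 0.891 and 2.53 CPM in sST2-KO and 8.38, 2.87 and 8.53 CPM in WT (log2 change -1.89, SE 0.58, edgeR adjusted p = 0.425). In both genes the groups did not overlap, and WT replicate 2 was the lowest WT library. Ifi208 had 1.88, 0.693 and 1.46 CPM in sST2-KO and 7.39, 0.957 and 7.51 CPM in WT, so WT replicate 2 fell inside the sST2-KO range (log2 change -1.98, SE 0.79, edgeR adjusted p = 0.445). The pseudogene Ifi203-ps had 6.82, 2.42 and 2.79 CPM in sST2-KO and 7.61, 6.62 and 5.78 CPM in WT (log2 change -0.73, SE 0.46, edgeR adjusted p = 0.55), with sST2-KO replicate 1 again high. None of these 4 passed the threshold of 0.05 in edgeR over all genes tested, and in DESeq2 Ifi213 did (adjusted p = 0.00112) and the other 3 did not. Ifi214 stayed under the filter, with 0, 0 and 1 counts in sST2-KO and 22, 1 and 31 counts in WT. The pseudogenes Gm18752 (0 counts in every sST2-KO library, and 6, 0 and 3 counts in WT) and Gm7897 (1 count in all 6 libraries together) stayed under it too.

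Ifi202b was detected mainly in 1 sST2-KO library. This gene encodes a family member without a pyrin domain that inhibits AIM2 in the mouse, and its expression is known to vary among inbred strains. It had 0, 84 and 1 counts in sST2-KO and 0, 4 and 0 counts in WT, and it stayed under the filter. The library with 84 counts is the one with airway transcripts.

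**Figure D2:**
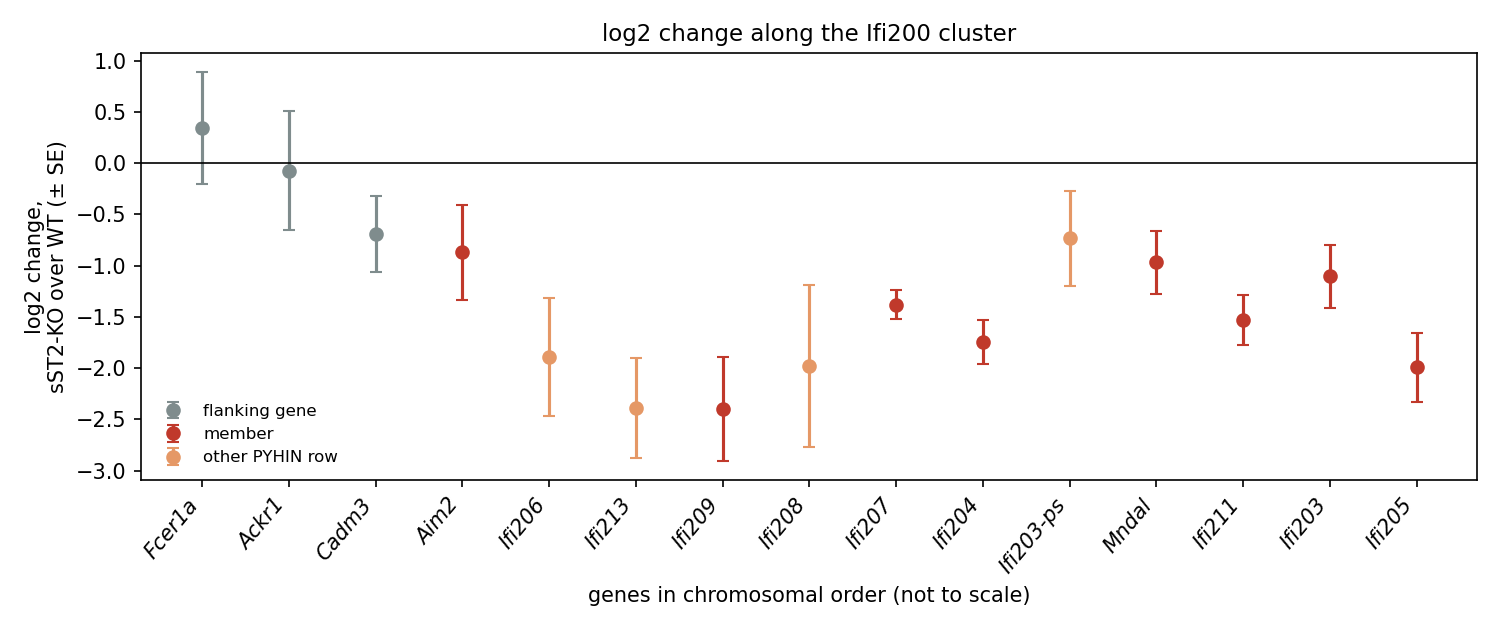
Log2 change of sST2-KO over WT (y axis, bars are ± SE) for the tested PYHIN rows and the 3 nearest tested protein-coding genes before Aim2, in chromosomal order and not to scale. The members and the other PYHIN rows lie between -2.40 and -0.73, and among the flanking genes Fcer1a is at 0.34, Ackr1 at -0.072 and Cadm3 at -0.69.

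Genes before the cluster gave mixed values. Of the 11 genes tested within 1 Mb before Aim2 5 had log2 changes above 0 and 6 below, with a median of -0.012. In 3 of the 11 every sST2-KO library was lower, against 10% of tested genes, and in 0 every one was higher, against 9.09%. In edgeR 0 passed the threshold. At an unadjusted p under 0.05 in edgeR 1 was higher and 1 lower, against 5.08% and 5.95% of all genes. The lower one was Slamf9 (log2 change -0.815, SE 0.178, groups apart). The higher one was Cfap45, at 48.1 CPM in the airway library and 1.19 to 2.07 CPM in the others. Both were named after their values were seen. Ackr1, a chemokine-binding receptor of venular endothelium and erythroid cells, had 19.5, 4.55 and 5.59 CPM in sST2-KO and 13.2, 8.05 and 9.90 CPM in WT, with full overlap (log2 change -0.072, SE 0.58, edgeR adjusted p = 0.967). Fcer1a, the IgE receptor subunit of mast cells, had 0.966 to 1.48 CPM in sST2-KO and 0.478 to 1.38 CPM in WT (log2 change 0.34, SE 0.55, edgeR adjusted p = 0.806). The log2 change of Cadm3 was -0.69 (SE 0.37), with an edgeR adjusted p of 0.504, and its groups did not overlap. The difference between the members and these neighbours was not tested.

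Per gene length the order of the members differed between the groups. Levels were expressed as RPKM (CPM per kilobase, with TMM scaling and the gene lengths of the deposited table). In sST2-KO the order was Mndal at 9.24 ± 3.28, Ifi207 at 7.66 ± 0.303, Ifi204 at 5.73 ± 1.19, Ifi211 at 5.45 ± 0.879, Ifi203 at 4.53 ± 1.87, Aim2 at 1.52 ± 0.918, Ifi205 at 1.496 ± 0.562 and Ifi209 at 1.22 ± 0.720 RPKM (SD, n = 3). In WT it was Ifi207 at 19.96 ± 1.28, Ifi204 at 19.2 ± 3.16, Mndal at 18.1 ± 4.07, Ifi211 at 15.8 ± 3.46, Ifi203 at 9.71 ± 1.10, Ifi209 at 6.48 ± 2.22, Ifi205 at 5.96 ± 1.07 and Aim2 at 2.77 ± 0.600 RPKM (SD, n = 3). Of the neighbours in the WT order, Ifi207 and Ifi204, Ifi204 and Mndal, Mndal and Ifi211, and Ifi209 and Ifi205 differed by less than the larger SD of the pair. In the sST2-KO order this held for Mndal and Ifi207, Ifi204 and Ifi211, Ifi211 and Ifi203, Aim2 and Ifi205, and Ifi205 and Ifi209. Aim2 was the lowest of the 8 in all 3 WT libraries, whereas Ifi205, Aim2 and Ifi209 were lowest in sST2-KO replicates 1, 2 and 3.

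**Figure D3:**
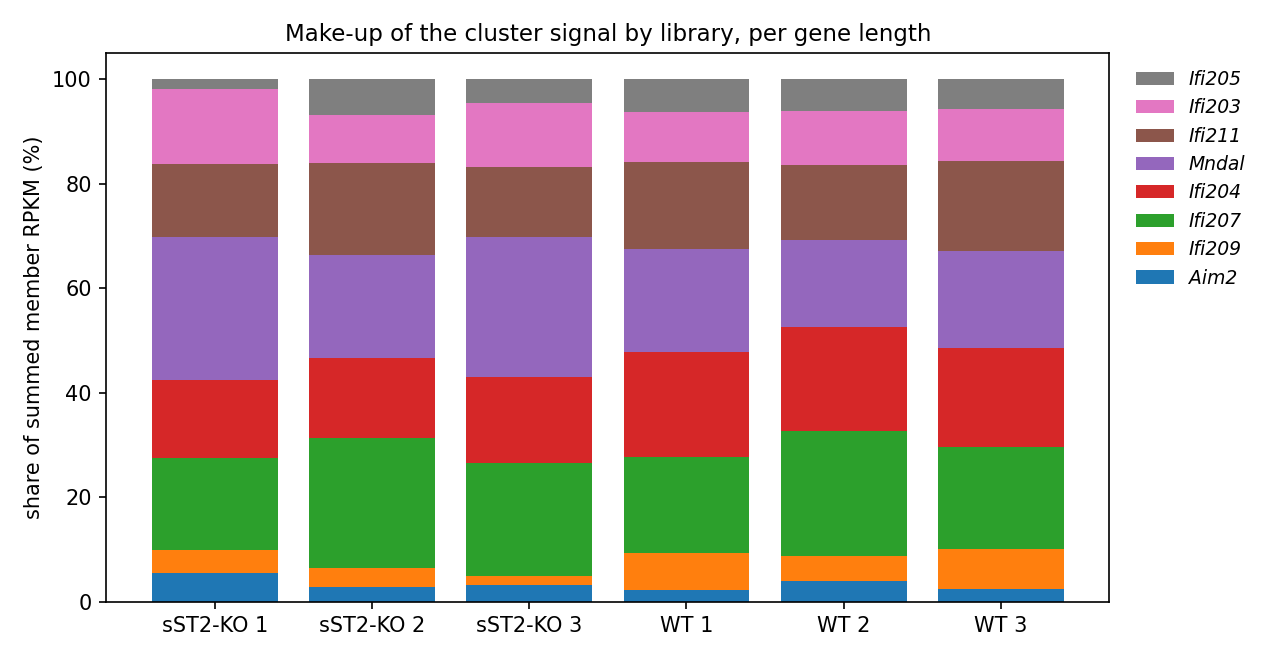
Share of each member in the summed RPKM of the 8 members (y axis, %), 1 bar per library, sST2-KO left and WT right. Mndal takes 27.2, 19.8 and 26.7% in sST2-KO and 19.6, 16.8 and 18.6% in WT, and Ifi204 takes 15.1, 15.2 and 16.5% in sST2-KO and 19.98, 19.7 and 19.0% in WT.

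The make-up of the summed signal differed for some members. Mndal took 27.2, 19.8 and 26.7% of the members' summed RPKM in sST2-KO and 19.6, 16.8 and 18.6% in WT. Ifi204 took 15.1, 15.2 and 16.5% in sST2-KO and 19.98, 19.7 and 19.0% in WT, and Ifi209 took 4.38, 3.67 and 1.65% in sST2-KO and 7.22, 4.69 and 7.62% in WT. For these 3 genes the shares did not overlap between the groups. The gap for Mndal was narrow, between 19.8% in sST2-KO replicate 2 and 19.6% in WT replicate 1. Shares within the members have no counterpart over all genes, and the genes were picked from this contrast. The lack of overlap is therefore given as description. The share of Ifi207 did overlap, at 17.5, 24.9 and 21.6% in sST2-KO and 18.4, 24.0 and 19.5% in WT.

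Within the groups the members did not all vary alike in these libraries. Over the 6 libraries the log2 CPM of the 28 pairs of members had Pearson correlations of 0.44 (Aim2 and Ifi205) to 0.98 (Ifi203 and Mndal), which include the difference between the groups and the shared library of each point. With each group's mean removed, Ifi203 and Mndal still had 0.95 and Ifi204 and Mndal 0.98, while Ifi205 had negative values with all 7 others, from -0.16 with Ifi211 to -0.93 with Aim2. These correlations rest on 6 libraries, with 3 per group, and sST2-KO replicate 2 with its airway transcripts is among them. So few points easily give values far from 0, and the correlations are given as description.

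How far reads can be told apart bears on such pairs. Of the windows of 100 bases in the annotated transcripts (GENCODE vM21, used for sequence alone), 56.9% of those of Ifi211 also occurred in transcripts of another gene, most often Ifi205 (37.2%). The shares were 16.9% for Ifi209, 15% for Ifi205, 10.7% for Ifi204, 6.38% for Mndal and 2.84% for Ifi203. They were 0.79% for Ifi207 and 0 for Aim2. For the other tested PYHIN rows the shares were 13.1% for Ifi206, 5.92% for Ifi208, 4.92% for Ifi203-ps and 3.3% for Ifi213. At 150 bases the share was 46.4% for Ifi211 and 0 for Ifi207. How the authors' counting treated reads that fit several genes is not stated in the sources used here, so the values of Ifi211 are uncertain in this respect.

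The pathways around the cluster were read from lists of genes, and no gene in them passed the threshold of 0.05 in edgeR over all genes tested. Of 33 tested interferon-stimulated genes outside the cluster 32 had log2 changes below 0, with a median of -1.06. At an unadjusted p under 0.05 in edgeR 26 were lower and 0 higher, against 5.95% of all genes lower and 5.08% higher. DESeq2 called 11 lower and 0 higher, where it called 1.12% of all genes lower and 0.384% higher. Limma-voom with sample quality weights called 3 lower and 0 higher, where it called 0.214% of all genes lower and 0.0488% higher. DESeq2 also called lower 3 of the 7 pan-leukocyte markers and 5 of the 16 macrophage and monocyte markers described further on. Trim30a, an interferon-induced TRIM protein, had 32.7, 22.7 and 24.6 CPM in sST2-KO and 70.1, 50.6 and 63.2 CPM in WT (log2 change -1.20, SE 0.21, edgeR adjusted p = 0.33). Oasl1 had a log2 change of -1.74 (SE 0.35), Ifit2 of -1.28 (SE 0.26) and the RNA sensor Ddx58 of -0.92 (SE 0.17), with edgeR adjusted p-values of 0.335 to 0.339. For 19 of the 33 the groups did not overlap with sST2-KO lower, against 10% of all tested genes. The one gene above 0 was Ifi35 (log2 change 0.23).

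The list of inflammasome and pyroptosis genes holds the partners of AIM2 and other sensors. Of its 15 tested genes 14 had log2 changes below 0, with a median of -0.53, and 5 were lower at an unadjusted p under 0.05 in edgeR, against 5.95% of all genes. Il1b, a cytokine that the inflammasome matures, had 8.01, 2.52 and 2.26 CPM in sST2-KO and 16.2, 10.5 and 11.99 CPM in WT (log2 change -1.59, SE 0.54, edgeR adjusted p = 0.433). The pyrin gene Mefv had a log2 change of -1.18 (SE 0.43), and the inflammasome sensors Nlrp1b and Nlrp3 of -1.13 (SE 0.42) and -1.53 (SE 0.58), with edgeR adjusted p-values of 0.44 to 0.442. Pycard, which encodes ASC, had 8.18, 8.61 and 4.39 CPM in sST2-KO and 14.8, 9.81 and 8.47 CPM in WT (log2 change -0.64, SE 0.37, edgeR adjusted p = 0.524). Pycard was named after its values were seen.

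The cytosolic DNA sensing list was split, with 7 of 16 tested genes above 0, 9 below and a median of -0.045. Samhd1, a nucleotide hydrolase that restricts viral DNA synthesis, had 89.7, 87.8 and 102 CPM in sST2-KO and 157, 149 and 149 CPM in WT (log2 change -0.70, SE 0.15, edgeR adjusted p = 0.339). Cgas, the enzyme that senses DNA for STING, had 2.95, 2.23 and 1.26 CPM in sST2-KO and 6.73, 3.99 and 6.32 CPM in WT (log2 change -1.40, SE 0.43, edgeR adjusted p = 0.427). Irf7, which encodes an interferon-induced transcription factor, had 28.4, 31.0 and 27.9 CPM in sST2-KO and 127, 24.8 and 105 CPM in WT (edgeR adjusted p = 0.435), so WT replicate 2 was the lowest of the 6 libraries. Irf3, which carries the signal to the interferon beta gene, had 70.2, 75.0 and 77.6 CPM in sST2-KO and 61.0, 47.4 and 58.4 CPM in WT (log2 change 0.42, SE 0.16, edgeR adjusted p = 0.442). Among 18 tested interferon receptors and signal transducers 17 had log2 changes below 0, with a median of -0.31. The receptor gene Ifnar1 was at -0.55 (SE 0.18), the kinase gene Jak2 at -0.48 (SE 0.16), Stat2 at -0.70 (SE 0.24) and Ifngr2 at -0.42 (SE 0.14), with edgeR adjusted p-values of 0.431 to 0.435.

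The lists did not move together in every library. For each gene the mean log2 CPM of the 6 libraries was subtracted, and the median over a list's genes was taken in each library. For the 8 members it was -0.44, -1.12 and -0.79 in sST2-KO replicates 1 to 3 and 0.94, 0.65 and 0.69 in WT replicates 1 to 3. For the 33 interferon-stimulated genes it was -0.49, -0.43 and -0.60 in sST2-KO and 0.98, -0.082 and 0.66 in WT. In WT replicate 2 the 4 other tested PYHIN genes were at 0.11, macrophage and monocyte markers at 0.15 and pan-leukocyte markers at 0.49. The members include genes picked for separating the groups tightly, so their level in each library was partly set by the choice.

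**Figure D4:**
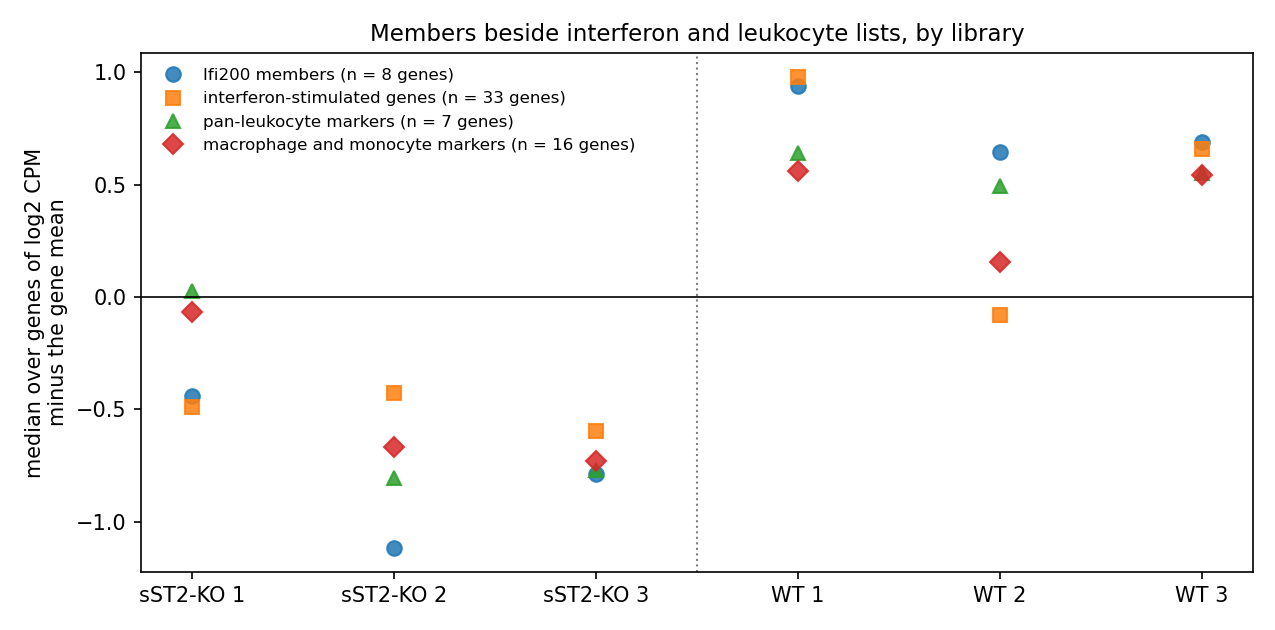
Median over the genes of a list of log2 CPM minus each gene's mean over the 6 libraries (y axis), for the members, interferon-stimulated genes and leukocyte marker lists, 1 column per library with sST2-KO left and WT right. In WT replicate 2 the members are at 0.65 and the interferon-stimulated genes at -0.082, while in WT replicates 1 and 3 both lists lie at 0.66 to 0.98.

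No leukocyte marker passed the threshold in edgeR, and the pan-leukocyte and most macrophage markers had log2 changes below 0. The 7 pan-leukocyte markers, none at 0 in all libraries, summed to 328 to 590 CPM in sST2-KO and 772 to 904 CPM in WT, and all 7 had log2 changes below 0 with a median of -0.998. Ptprc, which encodes CD45, had 52.6, 24.0 and 32.4 CPM in sST2-KO and 100, 87.1 and 89.6 CPM in WT (log2 change -1.35, SE 0.29, edgeR adjusted p = 0.339), and the leukocyte genes Cd53, Lcp1 and Laptm5 were at -1.20, -0.998 and -0.85. Of the 16 macrophage and monocyte markers, none at 0 in all libraries, 15 had log2 changes below 0 with a median of -0.998, and their sum was 2415 to 4120 CPM in sST2-KO and 3460 to 4144 CPM in WT. That sum was mostly Lyz2, at 2192 ± 898 CPM in sST2-KO and 1925 ± 105 CPM in WT (SD, n = 3 each). Without Lyz2 the sum was 968 to 1385 CPM in sST2-KO and 1616 to 2102 CPM in WT. Adgre1 (the macrophage antigen F4/80) had 42.7, 27.3 and 26.6 CPM in sST2-KO and 94.5, 89.3 and 90.9 CPM in WT (log2 change -1.51, SE 0.22, edgeR adjusted p = 0.28), and Itgam, Ccr2 and Csf1r were at -1.34, -1.52 and -0.83. In RNA of bulk aorta, fewer cells of a type and less RNA per cell cannot be told apart.

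Set against these markers the difference in the members was smaller. Per 100 CPM of pan-leukocyte markers the 8 members held 29.0, 28.9 and 39.8 CPM in sST2-KO and 45.2, 40 and 40.05 CPM in WT. On this measure the members' groups did not overlap, with sST2-KO replicate 3 just under the lowest WT library. Ifi207 alone held 4.63, 6.94 and 7.93 CPM in sST2-KO and 7.94, 9.03 and 7.47 CPM in WT on this measure, so its groups, which lay apart in CPM, overlapped. Per 100 CPM of macrophage and monocyte markers they did not overlap, with Ifi207 at 0.795, 0.614 and 1.08 CPM in sST2-KO and 1.73, 2.02 and 1.63 CPM in WT, and without Lyz2 at 1.97, 2.61 and 2.496 CPM in sST2-KO and 3.41, 4.32 and 3.16 CPM in WT. Per 100 CPM of macrophage and monocyte markers without Lyz2 the 8 members held 12.4, 10.9 and 12.5 CPM in sST2-KO and 19.4, 19.1 and 17.0 CPM in WT. With Lyz2 they held 4.98, 2.56 and 5.41 CPM in sST2-KO and 9.84, 8.93 and 8.74 CPM in WT. Neither measure gave overlap. The part of leukocyte content in the members' values was not tested. B cell markers summed to 10.3 to 36.7 CPM in sST2-KO and 23.9 to 38.3 CPM in WT, T and NK cell markers summed to 11.4 to 49.7 CPM in sST2-KO and 21.3 to 41.6 CPM in WT. Neutrophil markers summed to 33.8 to 92.8 CPM in sST2-KO and 105 to 256 CPM in WT. That sum included Lcn2 at 21.4, 65.0 and 17.8 CPM in sST2-KO and 110, 69.1 and 108 CPM in WT. Of the 7 neutrophil markers 2 did not overlap, with every sST2-KO library lower, against 10% of all tested genes. S100a8 overlapped, at 15.9, 3.96 and 2.33 CPM in sST2-KO and 20.8, 4.78 and 39.8 CPM in WT. Dendritic cell markers summed to 23.8 to 42.3 CPM in sST2-KO and 41.3 to 43.9 CPM in WT. In the T and NK cell list 3 of 8 tested genes had log2 changes above 0 and the median was -0.048.

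Markers of other cells differed beside the members as well. All 7 fibroblast markers had log2 changes below 0, with a median of -0.66. In 5 of these 7 markers every sST2-KO library was lower than every WT library, against 10% of all tested genes. The fibroblast markers summed to 4403 to 6481 CPM in sST2-KO and 8918 to 11510 CPM in WT. Lum, a collagen-binding matrix protein, had 492 ± 117 CPM in sST2-KO and 1403 ± 174 CPM in WT (SD, n = 3 each). Per 100 CPM of fibroblast markers the 8 members held 2.64, 1.87 and 2.97 CPM in sST2-KO and 4.55, 2.68 and 3.81 CPM in WT, which overlapped. Per 100 CPM of endothelial markers they held 9.59, 15.28 and 9.45 CPM in sST2-KO and 37.05, 33.56 and 34.26 CPM in WT, which did not overlap. Per 100 CPM of smooth muscle markers they held 3.412, 1.863 and 1.243 CPM in sST2-KO and 13.54, 3.325 and 7.634 CPM in WT. These values overlapped. The members' groups also overlapped per B cell, neutrophil, adipocyte and erythroid markers, and not per T and NK cell or dendritic cell markers. All 6 erythroid markers had log2 changes below 0, with a median of -2.65, and their sum was 60.5 to 1177 CPM in sST2-KO and 745 to 4768 CPM in WT. Other lists went the other way. In the smooth muscle list and in the endothelial list 6 of 7 tested genes were above 0, with a median of 0.27 in each. In the adipocyte list 4 of 5 were above 0, with a median of 1.13. The part of these cells in the members' values was not tested.

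The genes most like Ifi207 across the 6 libraries, by Pearson correlation of log2 CPM among 13717 named protein-coding genes, were Rab7b (0.994), Gpr65 (0.992), Ccl9 (0.991), Alox5ap (0.990) and Slc31a2 (0.990). Those most like Ifi204 were Nav3 (0.996), Il16 (0.993), Gpr65 (0.992), Slc39a1 (0.991) and Tasl (0.990). Over the same 6 libraries 102 of these genes exceeded 0.95 with Ifi207 and 108 with Ifi204. These correlations include the difference between the groups, for which Ifi207 and Ifi204 were picked. Each gene named here was likewise lower in every sST2-KO library than in any WT library. The values are therefore given as description and do not show that the genes vary together within a group.

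**Figure D5:**
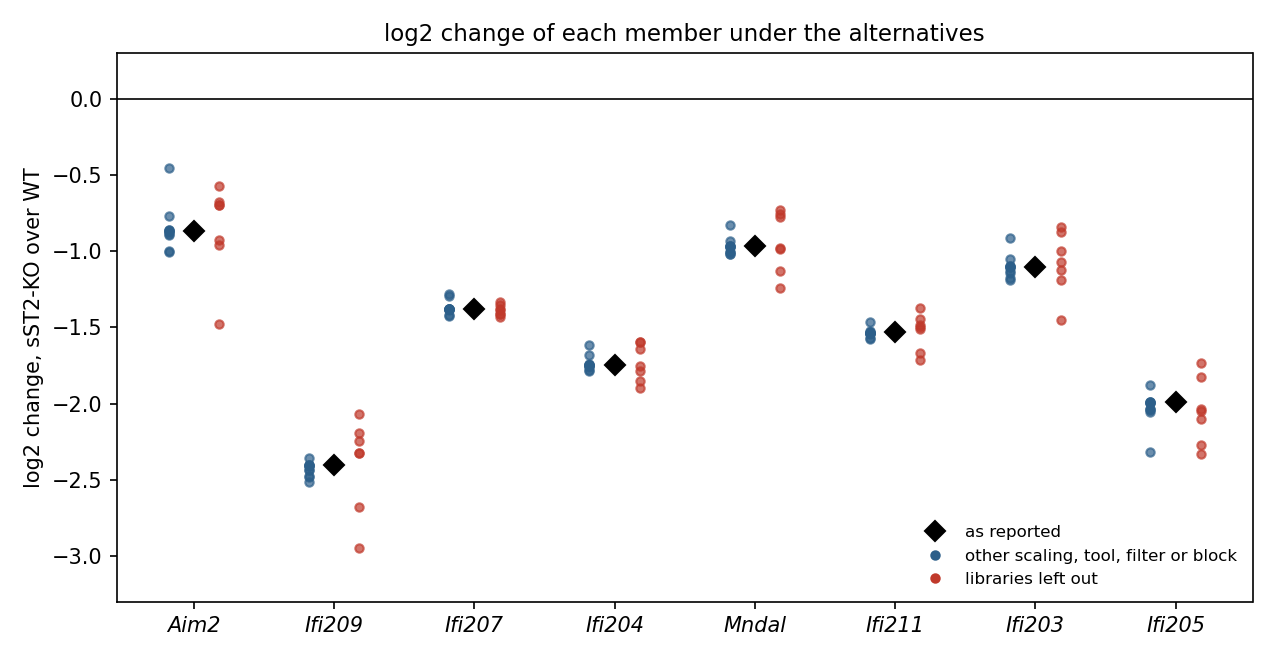
Log2 change of each member in sST2-KO over WT (y axis) as reported (diamond), with other scalings, tools, filters or a replicate block (left of it) and with libraries left out (right of it). Ifi207 stays between -1.43 and -1.28, and Aim2 ranges from -1.48 to -0.45.

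Across 18 alternatives every member kept a log2 change below 0. The alternatives used the same libraries from which the genes were picked, so these ranges describe the values and support nothing. Ifi207 varied least, from -1.43 to -1.28, and Ifi204 lay between -1.90 and -1.59. Ifi209 lay between -2.95 without sST2-KO replicate 1 and -2.07 without sST2-KO replicate 3. Ifi203 lay between -1.45 and -0.84 and Mndal between -1.24 and -0.73, in both genes with the first value without sST2-KO replicate 1 and the second without sST2-KO replicate 2.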

How the data were processed

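RNA of aortas was sequenced after poly-T selection and random-hexamer priming, per the labels' protocols. The authors deposited 1 table of unnormalized counts, with a row for each Ensembl gene. The submitters' processing notes name build mm39. For the aligner, the counting program, the strand setting and the annotation, the entry is: not given in the sources used here. Groups came from sample titles. P-values set the difference between the groups against the spread between the 3 libraries of a group. For that spread edgeR also draws on the other genes tested.

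The main test was that of edgeR 4.0.16 (R 4.3.3): filterByExpr (minimum count 10, minimum total 15), TMM scaling, glmQLFit and glmQLFTest, with Benjamini-Hochberg adjustment over all 16377 genes and a threshold of 0.05. Standard errors were the absolute log2 change divided by the square root of F, and positive values are higher in sST2-KO. Correlations used log2 CPM with a prior count of 2. Alternatives were RLE, upper-quartile and unscaled totals, DESeq2 1.42.0, limma 3.58.1 (voom, with and without quality weights), a test without the filter or with a stricter one, a test of protein-coding genes only, 0.1 as the threshold, the replicate number as a block, and each library left out in turn. Leaving out both libraries with foreign transcripts, totals without mitochondrially encoded genes and the marker sum without Lyz2 were added after seeing the data. No pair of libraries agreed within counting noise (median squared difference at least 2.98 times that of counting).

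The members and lists were chosen with earlier results of these data known. Named genes were all members, the other PYHIN rows of the stretch with a count, the 3 nearest protein-coding genes on each side (those after the cluster are not reported here), Il1rl1 and Il33, the 5 genes most like Ifi207 and Ifi204, up to 4 genes with the lowest p per pathway list and the abundant and lowest-p leukocyte markers. Promoter sequences are from RefSeq (GRCm38.p6) and were matched by symbol, while coordinates of genes are those of the table (mm39). Plots were drawn with matplotlib 3.10.9.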

Additional observations from a re-analysis of the deposited data

How the results depend on the processing

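In edgeR 0 genes were called higher and 0 lower (832 and 974 at an unadjusted p under 0.05, lowest adjusted p 0.264). The counts were also 0 and 0 with RLE, upper-quartile and unscaled totals, other filters, only protein-coding genes, 0.1 as the threshold, limma-voom and the 2 settings added after seeing the data. DESeq2 called 59 higher and 172 lower genes, and limma-voom with quality weights 8 and 35; the cause was not tested. Leaving out each library gave 0 higher and 0 to 1 lower genes, with 1 without sST2-KO replicate 2. The members' median log2 change ran from -1.57 without sST2-KO replicate 1 to -1.35 without WT replicate 1, and it was -1.37 with unscaled totals, where the median of all genes was 0.15 against 0.042. With the replicate number as a block 0 genes were called in either direction and the members' median was -1.45. Libraries with the same number had deviations that correlated at 0.14, 0.046 and -0.087, not all over 0.1, yet 4 of 6 correlated best with their own number. These values do not settle whether the numbers mark pairs. No label names them as pairs, and the main test had no block. Of the members' own changes 3 moved by more than 1 SD between replicates: Ifi207 to -1.28 with unscaled totals and -1.29 with quality weights, and Aim2 to -1.48 without sST2-KO replicate 1. The members' libraries held 31 to 1469 counts per gene.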
